A study of Mus musculus with 18 samples.

Results

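Messenger RNA of E14 mouse embryonic stem cells that lack GCN2 was set against that of wild-type E14 cells after both had been deprived of leucine for 3 h. GCN2, the product of Eif2ak4, is the kinase that responds to uncharged tRNA. The groups were Gcn_Leu (Eif2ak4-/-, leucine-free medium, 3 libraries) and Wt_Leu (wild type, leucine-free medium, 3 libraries), so 6 of the 18 libraries of the series carried the comparison. Whether a difference was already there before starvation was read from Gcn_Unstarved (Eif2ak4-/-) and Wt_Unstarved (wild type), each with 3 libraries of cells in the same medium with all amino acids. Gcn_Arg and Wt_Arg, the same genotypes after 3 h without arginine, with 3 libraries each, entered 1 comparison near the end. All cells were seeded the day before. Stock cultures were kept on gelatin in medium with 15% serum and 10 ng/ml of the self-renewal cytokine LIF. The 3 h in treatment medium were spent in SILAC medium with lysine, LIF and 5% dialyzed serum added in all groups. The labels do not say which part of Eif2ak4 was removed, nor whether the Gcn cells are 1 clone, so the genotype cannot be told apart from the history of the line. Whether replicates were cultured separately is not given either, and the p-values therefore cover the spread among these libraries alone, which may be technical.

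When an amino acid runs short, tRNAs lose their charge and GCN2 phosphorylates the translation factor eIF2α. General translation then slows, while the mRNA of the transcription factor ATF4 is translated more. ATF4 and partner bZIP factors such as CHOP and the C/EBP proteins turn on genes for amino acid synthesis, amino acid transport and tRNA charging, together with stress effectors such as TRIB3 and CHAC1. The eIF2α kinases PERK, PKR and HRI feed into the same step, which is called the integrated stress response (ISR).

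The bZIP pair of a C/EBP and an ATF protein is known to bind a composite element, the CARE, which can be written TGATGCAA. Of the 98 genes that were lower in Gcn_Leu than in Wt_Leu and whose genotype difference was also lower under starvation than without it, 79 had a promoter in the RefSeq table (GRCm38.p6, 250 bases before to 50 after the start). These letters, on either strand, stood in 12 of the 79 promoters (15.2%), against 0.713% of the 11508 promoters of tested genes and 279 of all 27025 promoters (1.03%). The 12 genes were Aars, Atf3, Chac1, Herpud1, Iars, Inhbe, Jdp2, Nupr1, Slc1a4, Slc7a11, Tars and Vldlr. A match describes letters in this window and is not evidence of binding. A plain CACGTG, the E-box, stood in 10.1% of the 79, in 11.5% of the promoters of tested genes and in 8.09% of all, and TGACNNNGC in 21.5% of the 79, in 16.7% of those of tested genes and in 14% of all. The genes were selected by their values in these libraries, so the shares are a description. Windows of 4 of the 12 are given below in the direction of the gene, with 25 bases on each side of the element in capitals, because these genes recur in the results. They lie before the RefSeq start and overlap no exon of their gene in GENCODE vM21; that of Atf3 lies inside the gene as annotated there, downstream of a more distant start.
Chac1: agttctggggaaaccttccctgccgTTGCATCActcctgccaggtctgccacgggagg
Slc7a11: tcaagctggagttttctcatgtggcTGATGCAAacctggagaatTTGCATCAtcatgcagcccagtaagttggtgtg
Herpud1: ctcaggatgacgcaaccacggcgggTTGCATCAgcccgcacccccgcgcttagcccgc
Atf3: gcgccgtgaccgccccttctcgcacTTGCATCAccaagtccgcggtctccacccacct
These windows lie at chr2:119351024-119351081 on the plus strand (Chac1), chr3:50443628-50443704 on the minus strand (Slc7a11), chr8:94386292-94386349 on the plus strand (Herpud1) and chr1:191183411-191183468 on the minus strand (Atf3). The element began 193 bases before the start in Chac1, 112 in Herpud1 and 110 in Atf3. Slc7a11 held it at 66 and again, in the other orientation, at 47 bases before the start.

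The Gcn_Leu libraries held 27512296, 30698386 and 38814785 counts and the Wt_Leu libraries 21296030, 31336678 and 21588961, within 14777012 to 38814785 over the series. Levels are given as CPM, counts scaled to library size with the trimmed mean of M values, and are not comparable between genes of different length. The first principal component of the 12 leucine-starved and unstarved libraries (45.5% of the variance) parted the genotypes and the second (20.2%) parted starved from unstarved libraries. On the third (8.02%), Gcn_Leu replicate 1 and Gcn_Unstarved replicate 1 stood apart at 26.4 and 23.6. Gm42418, which overlaps ribosomal RNA, took 1.31 to 2.06% of the counts in Gcn_Leu and 0.61 to 1.28% in Wt_Leu; mitochondrial genes took 2.04 to 2.44% in Gcn_Leu and 2.44 to 2.96% in Wt_Leu. The part of these values in the results was not tested. Of the stem cell markers, Pou5f1 averaged 2220 CPM in Gcn_Leu and 2170 CPM in Wt_Leu, and Sox2 729 CPM in Gcn_Leu and 592 CPM in Wt_Leu.

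Eif2ak4 (chromosome 2, 118388618 to 118475234, GRCm38) had 4.5, 4.04 and 5.44 CPM in Gcn_Leu, against 27.0, 27.6 and 28.1 CPM in Wt_Leu. The groups did not overlap, and the level was 5.88-fold lower in Gcn_Leu (log2 fold change −2.56 ± 0.13 SE, adjusted p = 1.42e-12). The unstarved groups differed as well (−2.61 ± 0.13, adjusted p = 1.73e-12), and the difference between both values, 0.05 ± 0.18, was not called (adjusted p = 0.94). This last quantity, the genotype difference under starvation minus the genotype difference without it, is called the interaction below.

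Of 16924 genes tested, 5264 (31.1%) were called between Gcn_Leu and Wt_Leu at an adjusted p under 0.05, 2436 higher (14.4%) and 2828 lower (16.7%) in Gcn_Leu. Between the unstarved groups 5548 genes (32.8%) were called, 16.6% of all tested genes higher and 16.2% lower in Gcn_Unstarved. Every count of called list members below is to be read against these shares. Of the 5264, 3344 were called in the same direction between the unstarved groups, which is 63.5% of the leucine list and 60.3% of the unstarved list. A further 1897 were not called unstarved and 23 were called in the opposite direction. Across the 16924 genes, the log2 fold changes with and without starvation had a Pearson r of 0.798 and a Spearman rho of 0.688; genes are not independent replicates. The interaction was called for 139 genes (0.821%), 26 above 0 (0.154%) and 113 below 0 (0.668%). Among the genes called in Gcn_Leu, it had the same sign as the difference for 98 lower and 20 higher ones, and 54 of the 98 and 14 of the 20 were not called unstarved. The interaction count depended on the tool (373 with DESeq2) and on single libraries. It was 257 without Gcn_Leu replicate 3, and 74 to 91 without any 1 of Gcn_Leu replicate 2, Gcn_Unstarved replicates 1 and 2, Wt_Leu replicates 1, 2 and 3 and Wt_Unstarved replicate 3. Without the same libraries the 14 became 30 (without Gcn_Leu replicate 3) or 4 to 9, and the 54 became 31 to 35 without any 1 of Gcn_Leu replicate 2, Gcn_Unstarved replicates 1 and 2 and Wt_Leu replicates 2 and 3. Same-numbered starved and unstarved libraries had deviations from their group means that correlated at 0.463, 0.244 and 0.2 in Gcn and 0.197, 0.049 and 0.18 in Wt. Other-numbered ones ran from −0.382 to 0.206 in Gcn and from −0.176 to −0.00381 in Wt. Across genotypes, other-numbered libraries reached 0.266, so the pairing is uncertain. A replicate block within genotype gave 1878 interaction calls, which held all 139. Under that block 26 more named genes had a called interaction, so an interaction given below as not called may be called there. Scaling by library size alone made the split even, with 51.0% of the interaction calls above 0. This share was 18.7% with the trimmed mean of M values, 19.6% with DESeq2 size factors and 10.3 to 39.9% over the remaining alternatives. The excess below 0 thus depends on scaling beyond library size.

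**Figure D1:**
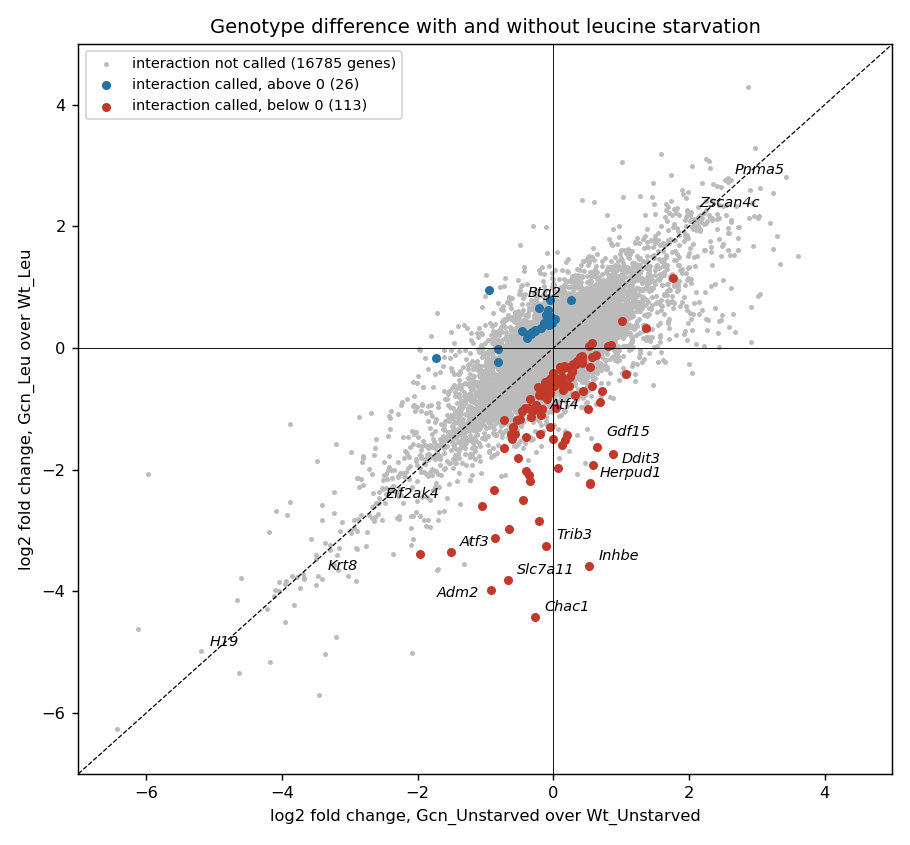
Each point is 1 of the 16924 tested genes. The x axis is the log2 fold change of Gcn_Unstarved over Wt_Unstarved and the y axis that of Gcn_Leu over Wt_Leu, and the dashed line marks equal values. Red points are the 113 genes with an interaction called below 0 and blue points the 26 called above 0. Chac1, Inhbe, Trib3 and Slc7a11 lie far below the line close to 0 on the x axis, whereas H19, Krt8, Eif2ak4, Pnma5 and Zscan4c lie near the line.

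All 10 ISR transcription factors in the list were lower in Gcn_Leu than in Wt_Leu, with a median log2 fold change of −1.05 against 0.00 over all genes. Without starvation 3 of the 10 were higher, 3 lower and 4 not called (median −0.08), and the interaction was called below 0 for 7. Atf4, the central factor of the response, had 338, 344 and 310 CPM in Gcn_Leu, against 665, 729 and 726 CPM in Wt_Leu. Its unstarved levels were 435, 402 and 385 CPM in Gcn_Unstarved and 529, 377 and 481 CPM in Wt_Unstarved. The starved groups did not overlap and the unstarved groups did. Atf4 was 2.14-fold lower in Gcn_Leu (log2 −1.10 ± 0.09, adjusted p = 4.64e-09), was not called unstarved (−0.18 ± 0.09, adjusted p = 0.132) and had an interaction of −0.91 ± 0.13 (adjusted p = 0.000344).

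Ddit3, which encodes CHOP, had 15.3, 20.5 and 18.2 CPM in Gcn_Leu, against 57.1, 62.3 and 61.4 CPM in Wt_Leu. It stood at 15.0, 16.5 and 15.5 CPM in Gcn_Unstarved, against 11.1, 5.78 and 8.57 CPM in Wt_Unstarved. Every Gcn_Leu library was below every Wt_Leu library, while every Gcn_Unstarved library was above every Wt_Unstarved library. The log2 fold change was −1.74 ± 0.15 under starvation (adjusted p = 3.46e-08) and 0.87 ± 0.17 without it (adjusted p = 0.000474). Cebpg, a bZIP partner of ATF4, and Jdp2, a repressor of AP-1 sites, also changed direction: Cebpg had −0.21 starved and 0.39 unstarved, and Jdp2 −1.01 starved and 0.51 unstarved, all called.

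Cebpb, a C/EBP factor, had 7.69, 6.55 and 7.74 CPM in Gcn_Leu, against 32.4, 35.1 and 32.6 CPM in Wt_Leu (log2 −2.19 ± 0.14, adjusted p = 7.52e-11). Between the unstarved groups the value was −0.34 and was not called (adjusted p = 0.0686). Nupr1, a small stress-induced chromatin protein, had 9.14, 8.69 and 9.2 CPM in Gcn_Leu, against 28.9, 38.6 and 38.8 CPM in Wt_Leu, and an unstarved difference of 0.07 (adjusted p = 0.811). Both genes therefore differed under starvation without a called difference before it, and both had a called interaction (−1.84 for Cebpb, −2.04 for Nupr1).

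Atf3, a bZIP factor induced by many stresses, was already lower without starvation. It had 2.23, 2.13 and 2.02 CPM in Gcn_Leu and 20.5, 22.9 and 21.3 CPM in Wt_Leu, and 2.7, 2.44 and 2.48 CPM in Gcn_Unstarved and 10.6, 4.66 and 6.24 CPM in Wt_Unstarved. The log2 fold change was −3.35 ± 0.20 starved and −1.51 ± 0.21 unstarved (adjusted p = 5.48e-11 and 1.02e-05), and the interaction was −1.83 ± 0.29 (adjusted p = 0.0015). Nfil3 and Cebpd were lower in both comparisons (−0.73 and −0.37 starved, −0.80 and −1.04 unstarved), with no interaction called. Atf5 had −0.25 under starvation (adjusted p = 0.0381), a call that was lost without any 1 of Gcn_Leu replicates 1, 2 and 3 and Wt_Leu replicates 2 and 3 and under 3 other settings (highest adjusted p 0.207).

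**Figure D2:**
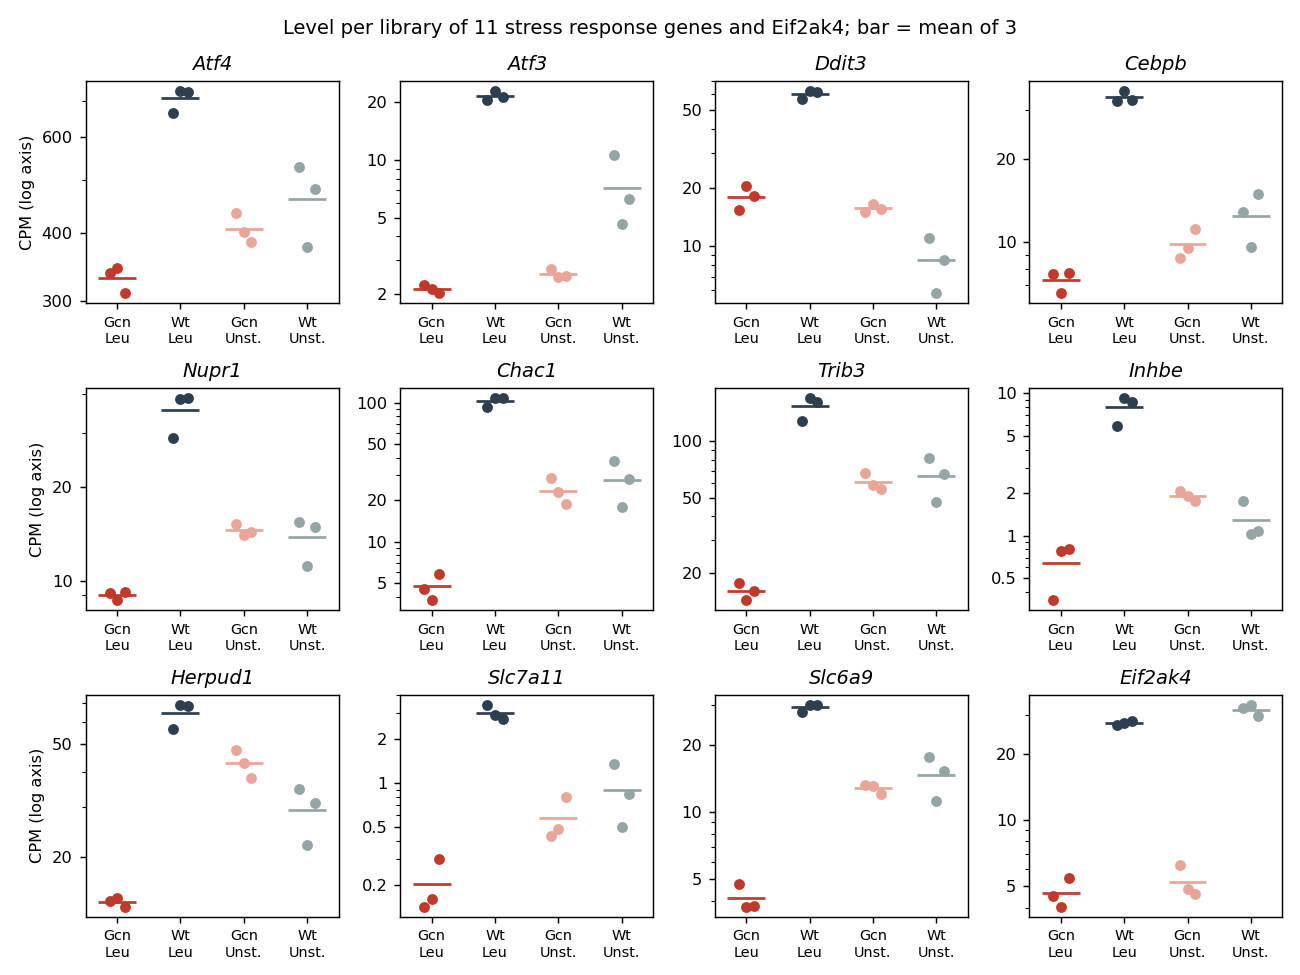
CPM on a log axis for 11 stress response genes and Eif2ak4, with 1 point per library and a bar at the mean of 3. From left to right each panel shows Gcn_Leu, Wt_Leu, Gcn_Unstarved and Wt_Unstarved. In every panel the 3 Gcn_Leu points lie below the 3 Wt_Leu points, while for Chac1, Trib3, Slc6a9 and Nupr1 the unstarved groups overlap or nearly overlap; Eif2ak4 is low in both Gcn groups.

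The ISR effectors followed with 13 of 17 lower and 1 higher in Gcn_Leu (median log2 −1.02), against 8 lower and 3 higher unstarved (median −0.27). The interaction was called below 0 for 9 of them. Chac1, an enzyme that degrades glutathione, had 4.57, 3.81 and 5.89 CPM in Gcn_Leu, against 92.3, 108 and 108 CPM in Wt_Leu. It had 28.6, 22.6 and 18.7 CPM in Gcn_Unstarved and 37.9, 17.7 and 28.2 CPM in Wt_Unstarved, so that the unstarved groups overlapped. Chac1 was 21.4-fold lower in Gcn_Leu (log2 −4.42 ± 0.24, adjusted p = 1.99e-09), was not called unstarved (−0.27 ± 0.21, adjusted p = 0.376) and had an interaction of −4.15 ± 0.32 (adjusted p = 2.66e-06). Trib3, a pseudokinase that restrains AKT and ATF4, had 17.7, 14.4 and 16.1 CPM in Gcn_Leu, against 128, 170 and 162 CPM in Wt_Leu. Its unstarved levels were 68.1, 58.4 and 55.9 CPM in Gcn_Unstarved and 81.2, 47.6 and 67.4 CPM in Wt_Unstarved. It was 9.55-fold lower in Gcn_Leu (log2 −3.26 ± 0.17, adjusted p = 7.19e-11), with −0.11 unstarved (adjusted p = 0.644). For both genes the 3 Gcn_Leu values were also below the 3 Gcn_Unstarved values.

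Secreted ISR products and the receptor gene Vldlr were lower in Gcn_Leu as well. Inhbe, an activin subunit, had 0.354, 0.775 and 0.809 CPM in Gcn_Leu, against 5.87, 9.25 and 8.72 CPM in Wt_Leu (log2 −3.58 ± 0.26, adjusted p = 8.42e-10). Unstarved it was not called (0.53, adjusted p = 0.163), and its interaction was −4.11 ± 0.39. Adm2, a peptide hormone, had 0.815, 0.613 and 0.809 CPM in Gcn_Leu, against 12.6, 11.7 and 11.2 CPM in Wt_Leu (log2 −3.98 ± 0.19), and part of this was there unstarved (−0.92 ± 0.19, adjusted p = 0.000641). Stc2, a secreted glycoprotein, and Vldlr, a lipoprotein receptor, had −3.12 and −2.98 starved and −0.86 and −0.65 unstarved, with called interactions of −2.26 and −2.32. Gdf15, a secreted stress cytokine, was lower in Gcn_Leu (−1.62) and higher in Gcn_Unstarved (0.65), both called. Fgf21, a hormone of the fasted state, was near the detection limit: it had 0, 0 and 2 counts in the Gcn_Leu libraries and 4, 9 and 14 counts in the Wt_Leu libraries, and no fold is given. Unstarved it was called lower too (adjusted p = 0.0215), a call lost without Gcn_Unstarved replicate 2 or 3 or Wt_Unstarved replicate 1 (highest adjusted p 0.228).

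Other effectors act on translation, growth and survival. Ppp1r15a (GADD34), which brings the phosphatase to eIF2α, had 29.0, 26.8 and 25.1 CPM in Gcn_Leu, against 49.6, 53.9 and 56.7 CPM in Wt_Leu (log2 −0.99 ± 0.10), and −0.36 unstarved (adjusted p = 0.00581). Its interaction of −0.63 (adjusted p = 0.0237) was lost without any 1 of Gcn_Leu 2, Gcn_Unstarved 1, Wt_Leu 2 and 3 and Wt_Unstarved 2 and 3 (replicate numbers; highest adjusted p 0.0845). Ddit4 (REDD1), an inhibitor of the growth kinase complex mTORC1, had 31.1, 47.6 and 38.3 CPM in Gcn_Leu, against 90.2, 112 and 90.7 CPM in Wt_Leu (log2 −1.32 ± 0.18, adjusted p = 3.38e-05). It was also lower unstarved (−0.64, adjusted p = 0.0111), a call lost without Gcn_Unstarved replicate 1 (adjusted p = 0.0571), and the interaction was not called (adjusted p = 0.233; 0.000234 with the replicate block within genotype). Eif4ebp1, a repressor of cap-dependent translation, was lower in both comparisons (−0.64 and −0.28). Gadd45a, a growth arrest gene, had −1.02 starved and −0.92 unstarved. Of the BH3-only genes, which promote cell death, Hrk had −0.88 starved and 0.69 unstarved (both called), whereas Bbc3 (−0.37, adjusted p = 0.0645) and Pmaip1 (0.05, adjusted p = 0.779) were not called under starvation.

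Among the 10 eIF2α kinases and their regulators, 5 were lower and 2 higher in Gcn_Leu, against 16.7% lower and 14.4% higher over all genes. Impact, an inhibitor of GCN2, had 203, 192 and 224 CPM in Gcn_Leu, against 325, 329 and 295 CPM in Wt_Leu (log2 −0.62 ± 0.09, adjusted p = 1.89e-05), with −0.35 unstarved. Gcn1l1, which encodes the GCN2 partner GCN1, had −0.28 (adjusted p = 0.0195), and Ppp1r15b, the constitutive phosphatase subunit, −0.45 (adjusted p = 5.53e-05). Neither was called unstarved, and neither interaction was called. That of Ppp1r15b was −0.33 (adjusted p = 0.148, and 0.00297 with the replicate block within genotype). The kinases of the other branches gave −0.13 for Eif2ak1 (HRI, adjusted p = 0.191), 0.34 for Eif2ak2 (PKR, adjusted p = 0.0411) and −0.09 for Eif2ak3 (PERK, adjusted p = 0.439).

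Amino acid synthesis genes were lower in Gcn_Leu for 15 of 22 members and higher for none (median log2 −0.65), and 16 of 22 were lower unstarved (median −0.34). Of the 15, 13 were called lower unstarved as well, and 3 of the 15 had a called interaction. Gpt2, a mitochondrial alanine aminotransferase, had 46.3, 42.3 and 42.7 CPM in Gcn_Leu, against 144, 159 and 158 CPM in Wt_Leu. It had 78.8, 65.2 and 60.7 CPM in Gcn_Unstarved, against 115, 80.9 and 97.8 CPM in Wt_Unstarved. The difference was there without starvation (log2 −0.52 ± 0.10, adjusted p = 0.000472) and was larger with it (−1.81 ± 0.11, adjusted p = 1.89e-11; interaction −1.29 ± 0.15, adjusted p = 1.56e-05). Mthfd2, a mitochondrial folate enzyme, behaved alike, with 142, 126 and 131 CPM in Gcn_Leu, against 413, 408 and 420 CPM in Wt_Leu (−1.63 starved, −0.73 unstarved, interaction −0.90, adjusted p = 0.000104). Aldh18a1, of proline synthesis, was the other member with a called interaction (−0.74, adjusted p = 0.00764). Asns, asparagine synthetase and a classical ATF4 target, had 350, 294 and 274 CPM in Gcn_Leu, against 476, 485 and 477 CPM in Wt_Leu. Its log2 fold change was −0.65 ± 0.09 starved and −0.39 ± 0.09 unstarved (adjusted p = 7.41e-06 and 0.002), and the interaction of −0.26 was not called (adjusted p = 0.367; 0.00816 with the replicate block within genotype). Serine synthesis genes showed the same order of values, with −0.87 starved and −0.62 unstarved for Phgdh, −0.96 and −0.66 for Psat1 and −0.64 and −0.37 for Psph, and no interaction called. Cth, of cysteine synthesis, had −1.15 starved and −0.87 unstarved. The low-level folate gene Aldh1l2 (1.81, 1.32 and 1.8 CPM in Gcn_Leu, against 5.21, 4.17 and 5.29 CPM in Wt_Leu) was called lower under starvation (−1.56) and not without it (−0.41), and its interaction of −1.14 was not called (adjusted p = 0.0657; 0.00327 with the replicate block within genotype).

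Of the 20 cytosolic tRNA synthetases, which charge tRNAs with their amino acids, 12 were lower in Gcn_Leu and none higher (median log2 −0.44). Unstarved, 6 were lower and 1 higher (median −0.04). Of the 12, 6 were not called unstarved, and 4 of the 12 had a called interaction. Nars had 416, 390 and 388 CPM in Gcn_Leu, against 711, 711 and 715 CPM in Wt_Leu (log2 −0.84 ± 0.07, adjusted p = 2.18e-09), with −0.34 unstarved and an interaction of −0.50 (adjusted p = 0.00746). Iars had 331, 256 and 266 CPM in Gcn_Leu, against 452, 472 and 498 CPM in Wt_Leu, and Aars 659, 595 and 554 CPM in Gcn_Leu, against 908, 934 and 1050 CPM in Wt_Leu. Neither was called unstarved (−0.04 and −0.13). Their interactions (−0.70 for Iars, −0.55 for Aars) were both lost without any 1 of Gcn_Unstarved replicates 1 and 2, Wt_Leu replicate 3 and Wt_Unstarved replicate 3, and that of Iars also without Gcn_Leu replicate 2 or Wt_Leu replicate 2 (highest adjusted p 0.0726 for Iars and 0.0778 for Aars). Gars, with 447, 434 and 374 CPM in Gcn_Leu and 788, 847 and 844 CPM in Wt_Leu, was lower both starved (−0.98) and unstarved (−0.63). Lars, which charges the tRNA for leucine, had −0.56 starved (adjusted p = 9.77e-05) and −0.01 unstarved (adjusted p = 0.968), with an interaction of −0.55 just outside the threshold (adjusted p = 0.0518). Eprs, Dars, Rars, Kars, Wars, Hars, Qars and Farsa were not called under starvation (−0.15 to 0.20).

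Amino acid transporters were lower in Gcn_Leu for 13 of 20 members and higher for 1 (median log2 −0.49), against 8 lower and 4 higher unstarved (median −0.24). Of the 13, 6 were not called unstarved, and the interaction was called below 0 for 6 of the 13. Slc6a9, a glycine transporter, had 4.75, 3.78 and 3.82 CPM in Gcn_Leu, against 28.1, 30.2 and 30.0 CPM in Wt_Leu (log2 −2.84 ± 0.14, adjusted p = 7.92e-13). The unstarved groups overlapped, with 13.2, 13.1 and 12 CPM in Gcn_Unstarved and 17.7, 11.2 and 15.2 CPM in Wt_Unstarved. Slc7a11, the cystine/glutamate exchanger, had 0.142, 0.161 and 0.303 CPM in Gcn_Leu, against 3.43, 2.91 and 2.74 CPM in Wt_Leu (log2 −3.81 ± 0.31), with −0.66 unstarved (adjusted p = 0.125). Its Gcn_Leu libraries held 4, 5 and 12 counts, so the sizes of its difference and interaction are uncertain. Slc1a4, for neutral amino acids, had 19.1, 11.7 and 15.9 CPM in Gcn_Leu, against 64.2, 67.5 and 65.3 CPM in Wt_Leu, and Slc7a1, for arginine and lysine, 90.6, 67.4 and 77.3 CPM in Gcn_Leu, against 198, 211 and 215 CPM in Wt_Leu. Neither was called unstarved (−0.36 and −0.19), and both interactions were (−1.72 and −1.21). The leucine carrier LAT1 and its heavy chain, Slc7a5 and Slc3a2, were lower in both comparisons (−1.19 and −1.04 starved, −0.53 and −0.31 unstarved), with called interactions of −0.65 and −0.73. Slc38a2 (−0.07, adjusted p = 0.526) and Slc7a3 (0.09, adjusted p = 0.391), for neutral and for cationic amino acids, were not called under starvation.

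**Figure D3:**
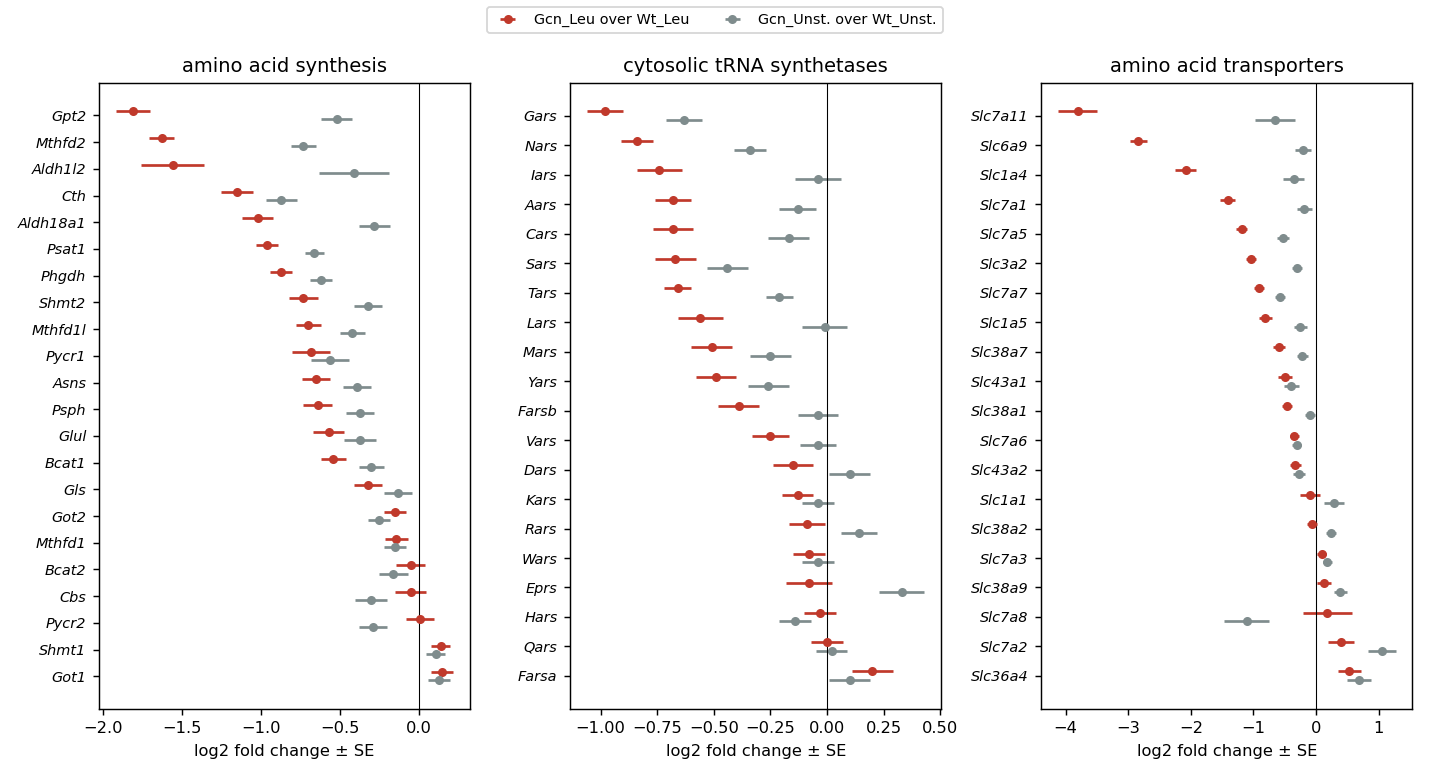
Log2 fold changes of Gcn over Wt with their SE for the 22 genes of amino acid synthesis, 20 cytosolic tRNA synthetases and 20 amino acid transporters, in red for the leucine-starved groups and in grey for the unstarved groups. In the synthesis panel most grey points also lie left of 0, whereas for Iars, Lars, Slc6a9 and Slc7a1 the grey points lie close to 0 and the red points well below.

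Of 19 sensors and brakes of the growth kinase mTORC1, 3 were lower and 3 higher in Gcn_Leu (median log2 −0.05), a share near that over all genes (31.1%). Sesn2, a leucine-binding inhibitor of mTORC1 signalling, had 234, 249 and 206 CPM in Gcn_Leu, against 300, 362 and 359 CPM in Wt_Leu (log2 −0.57 ± 0.09, adjusted p = 4.36e-05), and −0.04 unstarved. Its interaction (−0.53, adjusted p = 0.0489) was lost under 14 of 21 alternatives (highest adjusted p 0.168). Rraga, a GTPase that brings mTORC1 to the lysosome, was higher in Gcn_Leu, with 134, 139 and 128 CPM, against 106, 112 and 107 CPM in Wt_Leu (0.30 ± 0.06, adjusted p = 0.000616), and was not called unstarved (0.05). The interaction of Rraga, 0.25, was not called (adjusted p = 0.185, and 0.0119 with the replicate block within genotype). Among 28 genes of lysosome and autophagy, 5 were lower and 4 higher in Gcn_Leu, again a share near that over all genes. No interaction was called without the block. Mitf, a transcription factor of the TFEB family, was higher in both comparisons (1.11 starved, 1.19 unstarved), and Ctsl, a lysosomal protease (−0.74 starved, −0.76 unstarved), and Gabarapl1, an autophagy adaptor (−0.47 starved, −0.93 unstarved), were lower in both. Sqstm1 (p62), an autophagy receptor, was lower under starvation (−0.68, adjusted p = 4.72e-06) and not called without it (−0.19, adjusted p = 0.117), but the interaction was not called (adjusted p = 0.0726; 4.26e-05 with the replicate block within genotype).

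Redox genes of the NRF2 pathway were lower for 6 of 14 tested members (median log2 −0.24) and for 7 unstarved (median −0.23). The shares lower over all genes were 16.7% starved and 16.2% unstarved. Osgin1 was too low to be tested. Hmox1, which degrades haem, had −0.57 starved and −0.50 unstarved, and Txnrd1, thioredoxin reductase, −0.49 and −0.45. Apart from Slc7a11, which the list shares with the transporters, no member had a called interaction. Gclc, of glutathione synthesis, had 46.4, 34.6 and 39.8 CPM in Gcn_Leu, against 67.6, 73.9 and 67.2 CPM in Wt_Leu (−0.79, adjusted p = 0.0001), and −0.42 unstarved, a call lost without Gcn_Unstarved replicate 2 or 3 or Wt_Unstarved replicate 2 (highest adjusted p 0.069). In sterol synthesis 5 of 21 genes were higher and 1 lower in Gcn_Leu, by at most 0.57, while 14.4% were higher and 16.7% lower over all genes. Unstarved, 5 of the 21 were higher and 1 lower. Dhcr7, of the last step of the pathway, had the only called interaction (−0.21 starved, 0.34 unstarved, interaction −0.55). Tm7sf2 (0.57), Ebp (0.46), Idi1 (0.43) and Hsd17b7 (0.38), all enzymes of the pathway, were the higher ones with the largest values. Unstarved, Tm7sf2 (0.60) and Idi1 (0.44) were higher, and Ebp (0.24) and Hsd17b7 (−0.06) were not called. Single libraries left out ended the starved calls of Tm7sf2 (without Gcn_Leu replicate 1 or 3 or Wt_Leu replicate 3, highest adjusted p 0.0738), Idi1 (without Gcn_Leu replicate 2 or 3 or Wt_Leu replicate 1 or 3, 0.101) and Hsd17b7 (without Gcn_Leu replicate 1 or 3 or Wt_Leu replicate 1 or 3, 0.12). The unstarved calls of Tm7sf2 (0.0644, without Gcn_Unstarved replicate 3 or Wt_Unstarved replicate 1) and Idi1 (0.145, without Gcn_Unstarved replicate 2 or 3 or Wt_Unstarved replicate 1 or 3) were lost too.

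Chaperones and folding enzymes of the endoplasmic reticulum were mostly higher. Of 19 members, 11 were higher and 1 lower in Gcn_Leu (median log2 0.29), and 17 were higher unstarved (median 0.51). All 11 were among the 17. Sdf2l1, a chaperone cofactor, had 41.7, 45.3 and 41.5 CPM in Gcn_Leu, against 28.0, 27.1 and 26.3 CPM in Wt_Leu, with 0.66 starved and 0.69 unstarved. Hyou1, a large chaperone, had 0.54 in both. Hspa5 (BiP), the main chaperone, was not called under starvation (−0.04, adjusted p = 0.84) and was higher unstarved (0.53, adjusted p = 0.000689), but its interaction of −0.57 was not called (adjusted p = 0.0898). Xbp1, the transcription factor of the IRE1 branch, had 0.03 starved and 0.80 unstarved, with a called interaction of −0.77 (adjusted p = 0.00411). The single lower member was Herpud1, a degradation factor that ATF4 can also induce. It had 14.0, 14.4 and 13.4 CPM in Gcn_Leu, against 56.7, 68.9 and 68.2 CPM in Wt_Leu, and 47.8, 42.9 and 38.1 CPM in Gcn_Unstarved, against 34.9, 22.1 and 31.1 CPM in Wt_Unstarved. The values were thus lower in every Gcn library under starvation and higher in every Gcn library without it (log2 −2.21 ± 0.13 and 0.54 ± 0.13, interaction −2.76 ± 0.18, adjusted p = 1.09e-08).

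Of 14 heat shock genes, 4 were higher and 1 lower in Gcn_Leu with no interaction called; Dnajb1, an HSP40 co-chaperone, had 137, 175 and 139 CPM in Gcn_Leu, against 81.2, 81.2 and 87.5 CPM in Wt_Leu (log2 0.85 starved, 0.51 unstarved). Hspa1a and Hspa1b, near-identical HSP70 genes that share reads, were higher at low levels (1.24 and 1.14). Unstarved, Hspa1b was higher as well (0.87, adjusted p = 0.00171) and Hspa1a was not called (0.59, adjusted p = 0.0508). Of 19 p53 targets, 3 were higher and 2 lower in Gcn_Leu. Cdkn1a, the p21 cell cycle inhibitor, averaged 105 CPM in both starved groups (−0.01) and was lower in Gcn_Unstarved (−0.81), with an interaction of 0.80 (adjusted p = 0.0085). Perp, a membrane protein, was lower in both comparisons (−0.89 and −0.80). Among 27 genes of ribosome biogenesis, 6 were lower and none higher in Gcn_Leu. Over all genes 14.4% were higher and 16.7% lower, and the counts of the heat shock, p53 and ribosome lists are to be read against these shares. Rrp9 and Nop14, small-subunit processing factors, had 87.2, 91.6 and 81.1 CPM and 102, 89.6 and 97.9 CPM in Gcn_Leu, against 145, 150 and 154 CPM and 154, 149 and 145 CPM in Wt_Leu. Neither was called unstarved, and their interactions were −0.65 (adjusted p = 0.00141) and −0.64 (adjusted p = 0.000799).

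Of the 14 genes that were higher in Gcn_Leu with a called interaction and no call before starvation, 8 are named by rule. Btg2, an antiproliferative p53 target, had 72.2, 91.5 and 73.4 CPM in Gcn_Leu, against 46.3, 54.7 and 48.0 CPM in Wt_Leu, and 82.2, 96.8 and 88.2 CPM in Gcn_Unstarved, against 86.1, 119 and 105 CPM in Wt_Unstarved. All 3 Wt_Leu values were below every value of the other 3 groups (log2 0.67 ± 0.12 starved, −0.21 unstarved, interaction 0.88 ± 0.17, adjusted p = 0.00811). Rpp25l, a homologue of an RNase P subunit, had 56.4, 71.4 and 58.7 CPM in Gcn_Leu, against 36.5, 33.5 and 38.2 CPM in Wt_Leu (0.79 ± 0.10, interaction 0.83, adjusted p = 0.00155), and Itpripl1 had 23.2, 24.0 and 19.6 CPM, against 14.7, 13.6 and 15.0 CPM in Wt_Leu (0.63, interaction 0.70, adjusted p = 0.00829). Nodal, a TGFβ-family ligand of the early embryo, had 164, 173 and 149 CPM in Gcn_Leu, against 115, 115 and 120 CPM in Wt_Leu (0.48 ± 0.07), and 0.03 unstarved. The interactions of Nodal, Gfod2, Tmem18, Znhit3 and Cdca8 (0.44 to 0.66) lay close to the threshold (adjusted p 0.0218 to 0.0477) and were lost under 8 to 13 of 21 alternatives, most of them single libraries left out.
On the lower side, Tsc22d3, a glucocorticoid-inducible leucine zipper gene, had 5.74, 4.49 and 4.48 CPM in Gcn_Leu, against 14.0, 16.5 and 13.5 CPM in Wt_Leu (−1.59, unstarved 0.13). Ifrd1, a transcriptional co-regulator, had 50.2, 50 and 54.9 CPM in Gcn_Leu, against 141, 164 and 137 CPM in Wt_Leu, while the unstarved groups stood at 143, 130 and 133 CPM in Gcn_Unstarved and 133, 117 and 109 CPM in Wt_Unstarved. Every Gcn_Leu value of Ifrd1 was below every value of the other 3 groups (−1.51 ± 0.09 starved, 0.18 unstarved, interaction −1.69 ± 0.13, adjusted p = 2.12e-08).

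Most of the largest differences were of another kind. Of the 20 genes with the largest log2 fold changes above 10 CPM, 10 in each direction, 19 were called in the same direction unstarved. Of these 20, Chac1 and Adm2 had a called interaction. Krt8 and Otx2 joined them with the replicate block within genotype (adjusted p = 0.0349 and 0.000934). Krt8, Krt18 and Krt19, keratins of simple epithelia, were lower in Gcn_Leu. Krt8 had 8.4, 7.68 and 7.86 CPM in Gcn_Leu, against 118, 103 and 99.2 CPM in Wt_Leu, and the log2 fold changes of the 3 genes were −3.74 to −3.94 starved and −3.46 to −3.95 unstarved. Tagln, an actin-binding protein of smooth muscle (−3.75), the protease gene Prss23 (−3.98), Tmcc3 (−3.57) and the annexin Anxa3 (−3.40) were lower under starvation and by −3.19 to −4.10 unstarved. In bulk RNA, fewer cells of a type and less RNA per cell cannot be told apart. Pnma5 was higher, with 76.4, 67.1 and 61.5 CPM in Gcn_Leu, against 9.2, 10.1 and 10.8 CPM in Wt_Leu (2.77 ± 0.12 starved, 2.54 ± 0.12 unstarved). Xlr3a, Xlr3b, Xlr3c and Xlr5a, lymphocyte-regulated genes of the X chromosome (1.76 to 2.33), and Slfn9 (2.19) were higher as well; the Xlr3 copies are near-identical and their split of reads is uncertain.

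Imprinted genes, which are expressed from 1 parental allele, were lower in Gcn_Leu for 17 of 30 tested members and higher for 3 (median log2 −0.46); Airn and Rtl1 were too low to be tested. Of the 17, 16 were lower unstarved too. H19, a maternally expressed noncoding RNA, had 1.59, 1.45 and 0.986 CPM in Gcn_Leu, against 32.1, 42.6 and 50.9 CPM in Wt_Leu (−4.98 ± 0.25 starved, −5.19 ± 0.25 unstarved). Its neighbour Igf2, a growth factor, had 0.354, 0.517 and 0.683 CPM in Gcn_Leu, against 6.06, 4.69 and 6.4 CPM in Wt_Leu (−3.40 starved, −3.50 unstarved). Peg10, a retrotransposon-derived gene, had 126, 116 and 124 CPM in Gcn_Leu, against 528, 505 and 508 CPM in Wt_Leu (−2.07 starved, −1.70 unstarved). Meg3 (−1.22), Rian (−1.03) and Mirg (−0.72), noncoding RNAs of 1 cluster, were lower together with Dlk1 (−1.29), and Grb10 (−1.51), an adaptor that restrains insulin signalling, was lower too. Mest alone had a called interaction (−1.04 starved, −0.46 unstarved, interaction −0.58, adjusted p = 0.00157). Peg10, Sgce and Mest lie on chromosome 6, which is described below.

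Two-cell-like genes, which mark a rare state of stem cell cultures that resembles the embryo at genome activation, were higher for all 6 tested members in both comparisons (median log2 2.06 starved, 2.10 unstarved), and Tcstv1 and Gm4340 were too low to be tested. Zscan4d had 26.0, 21.6 and 32.8 CPM in Gcn_Leu, against 5.87, 5.6 and 7.15 CPM in Wt_Leu. The summed level of the list ran from 44.1 to 68.0 CPM in Gcn_Leu and from 11.9 to 14.4 CPM in Wt_Leu. Zscan4 and Usp17l copies share reads, so their separate values are uncertain.

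Naive pluripotency genes were higher in Gcn_Leu for 11 of 17 members and lower for 2 (median log2 0.30), and higher for 7 and lower for 1 unstarved (median 0.19). Nanog, a core pluripotency factor, had 731, 694 and 737 CPM in Gcn_Leu, against 302, 327 and 322 CPM in Wt_Leu, with 1.19 ± 0.07 starved and 0.85 ± 0.07 unstarved. Tbx3, a factor of the naive network, had 337, 282 and 266 CPM in Gcn_Leu, against 116, 131 and 120 CPM in Wt_Leu (1.27 starved, 1.10 unstarved), and Prdm14, which represses FGF signalling, 1.16 and 0.88. Dppa3, a germline and naive marker, was lower (−1.06 starved, −1.15 unstarved), and Pou5f1 was not called (0.03). Genes of primed cells and germ layers were lower for 10 of 21 and higher for 3 (median −0.52), and lower for 9 and higher for 3 unstarved (median −0.51). T (brachyury, a mesoderm factor) had 0.177, 0.194 and 0.228 CPM in Gcn_Leu, against 4.6, 3.27 and 2.04 CPM in Wt_Leu, and Cdx2, of trophectoderm, 0.106, 0.258 and 0.303 CPM in Gcn_Leu, against 4.08, 3.2 and 2.83 CPM in Wt_Leu. In the Gcn_Leu libraries T held 5, 6 and 9 counts and Cdx2 3, 8 and 12, so the sizes of these differences are uncertain. The neural progenitor filament gene Nes (−2.16) and Pou3f1 (−1.56), a primed-state factor, were lower, and Otx2, an anterior factor, was higher with 65.5, 58.2 and 47.8 CPM in Gcn_Leu, against 17.5, 25.4 and 19.7 CPM in Wt_Leu (1.44 starved, 1.01 unstarved). T (−4.04), Cdx2 (−2.91), Nes (−2.51) and Pou3f1 (−1.28) were called lower unstarved too. No member of these 3 lists had a called interaction, though Nanog and Otx2 did with the replicate block within genotype (adjusted p = 0.00118 and 0.000934).

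Of 10 fibroblast markers, 7 could be tested and 4 were lower in both comparisons, with a summed level of 147 to 177 CPM in Gcn_Leu and 166 to 198 CPM in Wt_Leu, most of it Vim. Unstarved, Vim was higher in Gcn (log2 0.57) and the sum ran from 225 to 247 CPM in Gcn_Unstarved and from 184 to 222 CPM in Wt_Unstarved. Col1a1, a fibrillar collagen, had 2.48, 1.94 and 2.02 CPM in Gcn_Leu, against 12.4, 9.87 and 15.2 CPM in Wt_Leu (−2.54 starved, −2.22 unstarved). Col1a2 (−2.27), Col3a1 (−3.83) and Acta2 (−2.96), a smooth muscle actin, were the others, and the fibroblast-restricted Dcn, Lum and Postn averaged at most 0.225 CPM in either starved group. Immediate early genes and feedback inhibitors of ERK were lower for 8 of 20 and higher for 3 in Gcn_Leu, and for 11 and 2 unstarved. The shares over all genes were 16.7% lower and 14.4% higher starved, and 16.2% lower and 16.6% higher unstarved. Dusp5, an ERK phosphatase, had 9.6, 9.78 and 9.53 CPM in Gcn_Leu, against 26.9, 27.3 and 25.3 CPM in Wt_Leu (−1.46 starved, −1.03 unstarved), Junb −0.77 and −1.01, and Myc −0.72 and −0.51. Egr1 was higher (0.69 starved, 1.21 unstarved), but its starved call was lost without Gcn_Leu replicate 2, Wt_Leu replicate 2 or Wt_Leu replicate 3 (highest adjusted p 0.0683). Of 20 cell cycle genes, 5 were lower and 3 higher in Gcn_Leu, against 16.7% lower and 14.4% higher over all genes. Ccnd2, a cyclin, averaged 11.3 CPM in Gcn_Leu and 22.8 CPM in Wt_Leu and was lower in both comparisons. Its unstarved call was lost without any 1 of 5 of the 6 unstarved libraries, all but Gcn_Unstarved replicate 3 (highest adjusted p 0.166). The replication licensing gene Cdc6 had 0.69 starved and 0.40 unstarved.

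**Figure D4:**
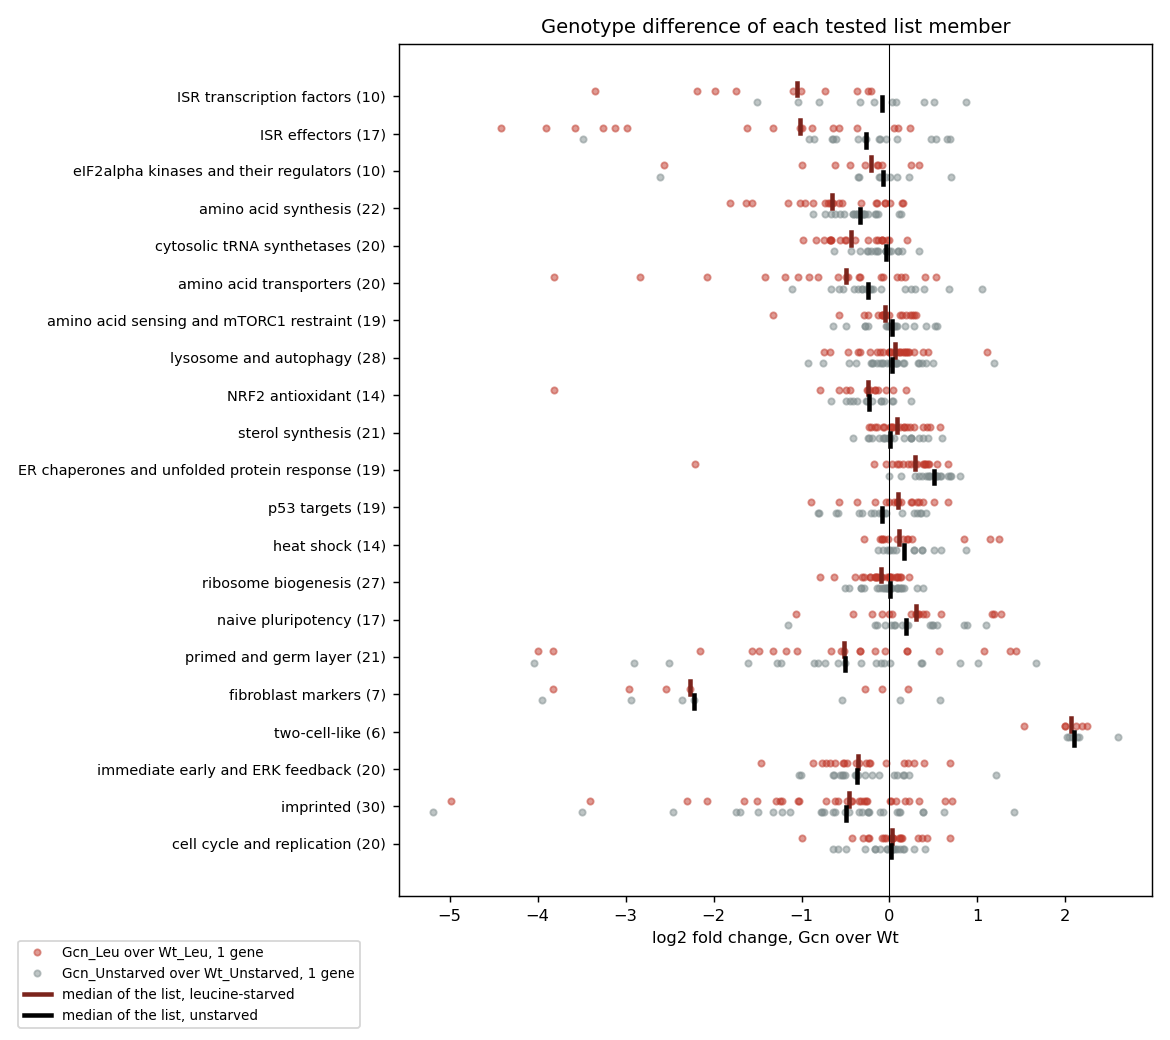
Log2 fold changes of Gcn over Wt for every tested member of 21 gene lists, with the number tested in parentheses. Red points are the leucine-starved groups, grey points the unstarved groups, and vertical bars the medians. The medians of ISR transcription factors lie at −1.05 starved and −0.08 unstarved, whereas those of the imprinted, two-cell-like and fibroblast lists nearly coincide.

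The 23 genes called in opposite directions with and without starvation were 16 that were lower in Gcn_Leu and higher in Gcn_Unstarved and 7 with the reverse. Leaving out single libraries gave 39 such genes without Gcn_Leu replicate 3, and 11 without Gcn_Leu replicate 2, 13 without Wt_Leu replicate 2, 14 without Wt_Leu replicate 1 or Gcn_Unstarved replicate 2, and 15 without Gcn_Unstarved replicate 1. The 16 held Ddit3, Herpud1, Gdf15, Jdp2, Hrk and Cebpg of the lists above, and besides them Trim66, AU041133, Ppargc1b, Tram1, Chuk, Fbxo11, Zfp518b, Zfp655, Eif5 and Nup133. Slc35a4, Ube2g2, Pqlc1, Uck1, Cox6b2, Klhdc8b and Neurog3 were the 7.

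Under arginine starvation the same genotypes differed for 5330 genes (31.5%), and these 6 libraries share none with the leucine groups. Chac1 had −4.42 under leucine and −4.30 under arginine starvation, Trib3 −3.26 and −3.43, Ddit3 −1.74 and −1.99, and Atf4 −1.10 and −1.20. The difference of the genotype differences between both starvations was called for 10 genes (0.0591%), 8 above (0.0473%) and 2 below 0 (0.0118%), and this count ran from 1 to 429 over the alternatives; it was 1 without Gcn_Leu replicate 2, Wt_Leu replicate 1 or Wt_Leu replicate 3 and 5 without Wt_Leu replicate 2. Gpt2 was the only one of the 10 among the ISR-linked lists, lower in Gcn under leucine starvation by −1.81 and under arginine starvation by −2.62 (difference 0.81, adjusted p = 0.0376). The value furthest from 0 among genes with established names was that of Rbm10, a splicing regulator, with −0.02 under leucine and −1.19 under arginine starvation (difference 1.16, adjusted p = 6.2e-06).

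Chromosome 6, chosen after its values were seen, differed from the others. Its 480 genes with at least 5 CPM had a median log2 fold change of −0.24 in Gcn_Leu over Wt_Leu, against medians of −0.03 to 0.05 on the other chromosomes. The median was −0.24 between the unstarved groups and −0.26 between the arginine-starved groups. Of 815 tested genes on chromosome 6, 35.8% were lower and 6.01% higher in Gcn_Leu, against 12.5 to 20.4% lower and 11.5 to 18.6% higher on the other chromosomes. Asns, Mthfd2, Gars, Bcat1, Gadd45a, Gabarapl1, Dppa3, Ccnd2, Col1a2, Peg10, Mest and Sgce lie on it and were lower, and Nanog, Mitf and Pdia4 lie on it and were higher. The part of this shift in the values of those genes was not tested; the interaction, in which a shift common to starved and unstarved cells cancels, had a median of −0.02 on chromosome 6.

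**Figure D5:**
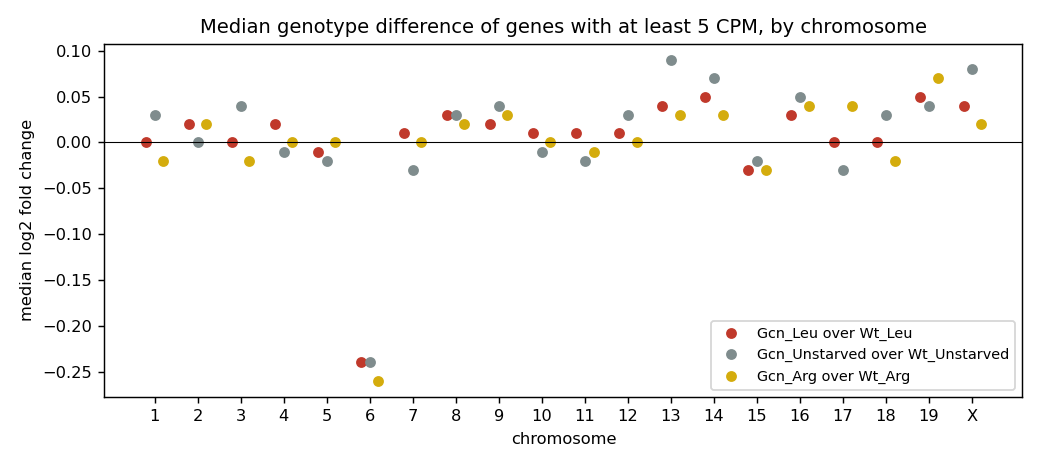
Median log2 fold change of Gcn over Wt for genes with at least 5 CPM, by chromosome, for the leucine-starved (red), unstarved (grey) and arginine-starved (yellow) groups. All 3 values for chromosome 6 lie between −0.26 and −0.24, while those for the other chromosomes lie between −0.03 and 0.09.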

How the data were processed

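Raw counts, whole numbers for each Ensembl gene, were taken as deposited from a Gcn and a Wt table of 9 libraries apiece. The normalized tables, scaled by the authors within a genotype, were not used. Per the submitters' processing notes, the tools included FastQC 0.11.7, STAR 2.7.4a, HTSeq, DESeq2 and DESeq 1.30.1 in R 4.0.3 with GRCm38; per the labels' protocols, libraries came from a directional poly(A) kit and 1 µg of total RNA, read as 43 bp pairs. The counting's strand option and gene annotation are not stated in any source at hand, so overlapping and antisense genes are uncertain.

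Both tables were joined by gene identifier. GENCODE vM21 gave a symbol to 55230 of the 55471 identifiers; at most 0.002% of a library fell on the 241 without one. The test was that of edgeR 4.0.16 (with limma 3.58.1 and statmod 1.5.0 under R 4.3.3) over all 18 libraries and 6 group means: filterByExpr, trimmed mean of M values, robust quasi-likelihood F test and Benjamini-Hochberg adjustment over all 16924 genes, called under 0.05. SEs come from the fold change and its F (absolute log2 value over the root of F). The common biological coefficient of variation was 0.0944. Library totals set the precision: counts of 0, 0 and 2 reads, as for Fgf21 in Gcn_Leu, allow no fold. Low counts, as for Slc7a11, T, Cdx2 and Col3a1 in Gcn_Leu, make a fold imprecise. The procedure was run on simulated data with changes set in Gcn_Leu alone, independent libraries and no other genotype difference. These settings lack the broad genotype differences and the correlated libraries of the real data. The simulation therefore does not bear on the interaction count. Principal components used log2 CPM with a prior count of 2. No libraries were duplicates. Deviations from the group means correlated over 0.1 in all same-numbered starved and unstarved Gcn pairs and in 2 of 3 Wt pairs (0.197, 0.049 and 0.18). Across genotypes the same-numbered values ran from −0.206 to 0.138 and the other-numbered ones from −0.124 to 0.266. The numbers may therefore pair libraries within each genotype, while the fit has no block.

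The members and lists were chosen with earlier results of these data known. Genes named by rule are Eif2ak4; the 10 largest changes each way with at least 10 CPM in the higher group and no overlap; by the same filters the 8 largest each way with a called interaction of the same sign and no unstarved call; the 4 largest called members of each list; and Atf4, Ddit3, Trib3, Chac1, Sesn2, Ddit4, Asns and Atf5. Other list members, the genes of opposite direction and Rbm10 were named after their values were seen. Promoters are from RefSeq (GRCm38.p6). Alternatives were other scalings, no filter, DESeq2 1.42.0, limma-voom, only the groups compared, stricter thresholds, a replicate block and libraries left out.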

Additional observations from a re-analysis of the deposited data

Results flagged for a closer look

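For 33 of the 110 named genes the interaction was called (edgeR's quasi-likelihood test, Benjamini-Hochberg adjusted), against 139 of all 16924 genes (0.821%). Many of the 33 were named by a rule that asked for a called interaction, so their number is not a result. The values are the genotype difference under starvation minus that without it, on the log2 scale. Below −2 were Chac1 at −4.15, Inhbe at −4.11, Trib3 at −3.15, Slc7a11 at −3.14, Adm2 at −3.06, Herpud1 at −2.76, Slc6a9 at −2.64, Ddit3 at −2.61 and Nupr1 at −2.04. Between −2 and −1 were Cebpb at −1.84, Atf3 at −1.83, Slc1a4 at −1.72, Tsc22d3 at −1.72, Ifrd1 at −1.69, Gpt2 at −1.29 and Slc7a1 at −1.21. Nearer to 0 were Atf4 at −0.91, Mthfd2 at −0.90, Iars at −0.70, Rrp9 at −0.65, Nop14 at −0.64, Ppp1r15a at −0.63, Aars at −0.55, Sesn2 at −0.53 and Nars at −0.50. Above 0 were Btg2 at 0.88, Rpp25l at 0.83, Itpripl1 at 0.70, Gfod2 at 0.66, Tmem18 at 0.52, Znhit3 at 0.46, Nodal at 0.45 and Cdca8 at 0.44. The calls of Sesn2, Cdca8, Nodal, Tmem18, Znhit3, Gfod2, Ppp1r15a, Iars and Aars were lost under some alternatives.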

How the results depend on the processing

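Of 110 named genes, 103 kept their call and sign between Gcn_Leu and Wt_Leu under all 14 alternatives, and 24 of the 33 called interactions did so under all 21. No value called in the main fit or in the alternative changed sign. These genes were named largely for their calls, so their shares do not hold for all genes. Of the 5264 genes, as few as 3938 were called again (without Wt_Leu replicate 2) and as many as 5241 (with a replicate block). The 5264 calls were 4065 to 5015 without 1 of the 6 leucine-starved libraries, 5125 to 5354 without 1 of the 6 unstarved ones, 3328 at an adjusted p under 0.01 and 1191 with a log2 fold change of at least 1. Calls lost on leaving out libraries were Atf5 (5 times, highest adjusted p 0.207), Hspd1 (4, 0.189), Sesn3 (3, 0.17), Hsd17b7 (5, 0.12), Idi1 (4, 0.101), Tm7sf2 (3, 0.0738) and Egr1 (3, 0.0683). The 139 interaction calls were 373 with DESeq2, 353 with no filter and 74 to 257 without 1 library. With library size only, 80 of them were above and 77 below 0, and the median interaction of all genes was 0.06 against −0.01. The 10 genes that differed between leucine and arginine starvation were 79 with DESeq2, 61 with no filter, 2 with only the groups compared, 30 without the 3 Gcn libraries numbered 1 and 1 to 15 without 1 library. The 23 genes of opposite direction were 15 without the 3 Gcn libraries numbered 1 and 11 to 39 without 1 library. The 14 higher genes with a called interaction and no unstarved call were 64 with DESeq2, 31 with library size only, 53 with no filter, 6 with only the groups compared and 4 to 30 without 1 library; the 54 lower ones were 109, 83 (DESeq2, no filter) and 31 to 67. Same-numbered Gcn_Leu and Wt_Leu libraries deviated from their group means with correlations of −0.206, 0.138 and −0.197, so the numbers do not pair the genotypes. A replicate block gave 227 interaction calls, 30 of the higher kind above and 17 genes between both starvations; a replicate block within genotype gave 1878 interaction calls and 429 genes between both starvations. The cause was not tested.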
